A study of Mus musculus with 6 samples.

Results

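U3, U8, U13, U14 and U17 are 5 small nucleolar RNAs that take part in making ribosomal RNA. They were chosen by name among the rows of class snRNA in the repeat count tables, and they make up 5 of the 1336 rows in the tables. All 5 had enough counts to be tested, among 1193 tested rows. U3, U8 and U13 are transcribed from promoters of their own, and U14 and U17 are cut out of introns of other genes. RNA was compared between mouse embryonic fibroblasts lacking both copies of Actb (KO, 3 libraries) and wild-type fibroblasts (WT, 3 libraries). Actb encodes β-actin, an actin of the cytoskeleton that is also found in the nucleus. Cells of both genotypes are labelled as fibroblasts of BALB/c embryos aged 10.5 days, untreated as far as the labels say, and the series describes 3 biological replicates of each genotype. The sources used here do not say whether the replicates came from separate embryos or from repeat cultures of 1 line, nor how the Actb alleles were made, so p-values measure the spread between these samples, which may be technical.

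Ribosomal RNA is transcribed in the nucleolus as a long precursor, which is cut, trimmed and chemically modified into the mature RNAs of the small and the large ribosomal subunit. Most small nucleolar RNAs guide single modifications, but a few are needed for the cuts themselves. U3 pairs with the 5′ external spacer of the precursor and is the core RNA of the small-subunit processome. U14 and U17 also act in maturation of the small-subunit RNA. U8 acts in maturation of the large-subunit RNAs, and U13 base-pairs with small-subunit RNA and guides an acetylation of it. U3, U8, U13 and U14 carry the C and D boxes that bind fibrillarin, and U17 is of the H/ACA type that binds dyskerin. The genes of U3, U8 and U13 use promoters of the kind found at spliceosomal RNA genes, read by RNA polymerase II, and their RNAs receive a trimethylated cap.

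The sequences show how the members differ in kind and how far the named loci of 1 RNA differ from each other. GENCODE M21, on the GRCm38 build that the submitters' processing notes also name, holds 13 named loci for the 5 RNAs, and 1 sequence each of U8, U14 and U17 follows, with 2 for U3. U3 has Rnu3a at chr10:40258467-40258680 on the + strand and 4 Rnu3b loci on chromosome 11, all on the + strand, the first of which is Rnu3b1 at chr11:87443237-87443452. U8 is Snord118 at chr11:69073427-69073561 on the + strand. U14 is represented by Snord14c at chr9:40803583-40803668 on the + strand, and U17 by Snora73a at chr4:132352775-132352979 on the - strand. Each sequence is the transcript, 5′ to 3′. Capitals mark TGATGA, the core of box C, and the CTGA nearest the 3′ end, the letters of box D, or, in U17, the ACA that lies 3 bases before the 3′ end.
Rnu3a: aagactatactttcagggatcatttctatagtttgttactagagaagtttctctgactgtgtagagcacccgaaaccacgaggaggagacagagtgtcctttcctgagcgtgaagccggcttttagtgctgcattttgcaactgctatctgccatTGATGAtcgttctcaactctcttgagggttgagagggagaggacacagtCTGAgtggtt
Rnu3b1: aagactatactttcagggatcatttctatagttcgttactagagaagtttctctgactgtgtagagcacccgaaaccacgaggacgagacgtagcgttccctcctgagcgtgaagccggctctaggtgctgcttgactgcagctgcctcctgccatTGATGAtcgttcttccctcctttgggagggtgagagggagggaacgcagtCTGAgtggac
Snord118: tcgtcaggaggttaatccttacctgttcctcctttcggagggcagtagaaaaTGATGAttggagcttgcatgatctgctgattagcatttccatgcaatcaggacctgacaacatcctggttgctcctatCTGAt
Snord14c: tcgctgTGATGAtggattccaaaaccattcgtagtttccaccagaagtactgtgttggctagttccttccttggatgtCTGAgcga
Snora73a: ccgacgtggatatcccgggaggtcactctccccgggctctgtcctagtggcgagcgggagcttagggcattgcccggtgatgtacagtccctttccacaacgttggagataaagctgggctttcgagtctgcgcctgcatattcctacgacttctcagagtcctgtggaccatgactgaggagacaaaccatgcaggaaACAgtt

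The letters were searched on the transcript strand only, and a match describes the sequence and does not show a working box. TGATGA occurred in 26.1% of 1507 transcripts of type snoRNA in the same annotation, CTGA in 79.5%, TGATGA followed by CTGA in 24% and the 3′ ACA in 18.3%. The marked stretches do not overlap in any printed sequence. The 4 Rnu3b sequences were identical over 216 bases, and Rnu3a matched them at 184 of 216 aligned columns (85.2%). Snora73a and Snora73b, the pair of U17 loci, matched at 198 of 205 bases (96.6%). The 4 U14 loci were more diverse, at 78% to 97.7% identity. Each table row sums all copies, so loci of 1 RNA could not be told apart. The repeat annotation behind the rows is not stated, so a row may also count copies other than these named loci.

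The annotation places the intron-encoded members inside other genes. Snord14c, Snord14d and Snord14e lie within Hspa8, a heat shock protein gene, and Snord14a lies within Rps13, a ribosomal protein gene, and each of these 4 overlaps an exon of at least 1 annotated host transcript. Snora73a and Snora73b lie within introns of Rcc1 and within Snhg3, a non-coding host gene, and Snora73a overlaps an exon of an annotated Snhg3 transcript. Counts of U14 and U17 can therefore hold reads of unspliced or retained host RNA, which was not tested. No gene of the searched types (protein-coding, processed transcript or lincRNA) spans Rnu3a or Snord118 on the same strand, whereas the 4 Rnu3b loci lie within introns of Tex14 although U3 has its own promoters. Counts of U3 can thus also hold reads of unspliced Tex14 RNA, which was not tested either.

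Total RNA was depleted of ribosomal RNA before sequencing, and the 6 libraries held 7708630 to 19288620 counts. The 3 rRNA rows took 84.8%, 52.9% and 77.0% of the counts in KO replicates 1, 2 and 3, against 32.4%, 84.1% and 73.7% in WT replicates 1, 2 and 3. Levels are given as normalized CPM, the CPM of an effective library size computed with TMM (trimmed mean of M-values). They are thus set against most repeat rows together, and rRNA does not fix the scale. The tables hold no protein-coding genes, so neither loss of Actb RNA nor the fibroblast label could be checked against marker genes. In these bulk libraries, fewer cells of a type and less RNA per cell cannot be told apart.

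U3 was the member that differed most between the genotypes. It had 101, 108 and 142 normalized CPM in KO replicates 1, 2 and 3, against 411, 338 and 395 in WT replicates 1, 2 and 3. All KO libraries lay far below all WT libraries, with the highest KO value at 142 and the lowest WT value at 338. U3 fell to 117 ± 22.3 normalized CPM in KO, against 381 ± 38.7 in WT (mean ± SD, n = 3 each), 0.307 of the WT level. On the log2 scale the fold change was -1.70 ± 0.14 (standard error), with an adjusted p of 0.000808 in edgeR's quasi-likelihood test after Benjamini-Hochberg adjustment over all tested rows. The values rest on 823 to 2170 counts in KO libraries and 2596 to 9913 in WT libraries. Among the 1193 tested rows U3 had the second smallest p and the 7th lowest log2 fold change.

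U8 fell as well, on far fewer counts. It had 2.45, 1.59 and 3.37 normalized CPM in KO replicates 1, 2 and 3, against 5.19, 5.33 and 8.07 in WT replicates 1, 2 and 3. The groups did not overlap, and KO replicate 3 was the highest of the KO libraries and WT replicate 3 the highest of the WT libraries. The mean was 2.47 ± 0.892 normalized CPM in KO and 6.20 ± 1.63 in WT (SD, n = 3 each), and the log2 fold change was -1.36 ± 0.31 (standard error; edgeR adjusted p = 0.0446). The counts behind these levels were 20 to 50 in KO libraries and 41 to 125 in WT libraries, and the exact 95% Poisson interval of the lowest count, 20 in KO replicate 1, was 12.2 to 30.9 and covers counting error only. Leaving out any single library ended the call, with log2 fold changes of -1.72 to -1.04 and edgeR adjusted p of 0.0501 to 0.146.

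U13, the remaining RNA with its own promoter, did not pass the test. It had 3.19, 3.92 and 4.79 normalized CPM in KO replicates 1, 2 and 3, against 5.89, 6.89 and 5.22 in WT replicates 1, 2 and 3. The groups did not overlap, but the highest KO value and the lowest WT value were close to each other. The mean was 3.97 ± 0.803 in KO and 6.00 ± 0.842 in WT (SD, n = 3 each), so that the log2 fold change was -0.54 ± 0.19 (standard error; edgeR adjusted p = 0.153). Its counts, 26 to 79 in KO libraries and 53 to 142 in WT libraries, were also low.

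U17 had more counts than U14, the other intron-encoded member, and narrowly missed the threshold. It had 218, 236 and 302 normalized CPM in KO replicates 1, 2 and 3, against 349, 325 and 393 in WT replicates 1, 2 and 3. The groups did not overlap, with KO replicate 3 nearest to the WT libraries. The mean was 252 ± 44.1 in KO and 356 ± 34.8 in WT (SD, n = 3 each), so that the log2 fold change was -0.50 ± 0.13 (standard error; edgeR adjusted p = 0.0619). The row passed at log2 fold changes of -0.49 with the rRNA level as a covariate (edgeR adjusted p = 0.0163), -0.50 in DESeq2 (adjusted p = 0.000102) and -0.65 without KO replicate 3 (edgeR adjusted p = 0.0200).

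U14 showed the smallest difference. It had 5.88, 5.56 and 10.8 normalized CPM in KO replicates 1, 2 and 3, against 8.63, 10.1 and 8.004 in WT replicates 1, 2 and 3. The groups overlapped, because KO replicate 3 was above every WT library while the other KO libraries were below them. The mean was 7.41 ± 2.93 in KO and 8.93 ± 1.10 in WT (SD, n = 3 each), so that the log2 fold change was -0.23 ± 0.25 (standard error; edgeR adjusted p = 0.662). The estimate depended on single libraries. It was -0.63 when KO replicate 3 was left out, -0.01 when KO replicate 2 was and -0.14 when KO replicate 1 was. KO replicate 3 was the highest KO library for all 5 members. Its rRNA share lay between those of the other KO libraries. With the rRNA level of each library as a covariate, U14 was at -0.27 (edgeR adjusted p = 0.494). That fit tested genotype, and the effect of the rRNA level itself was not tested.

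**Figure D1:**
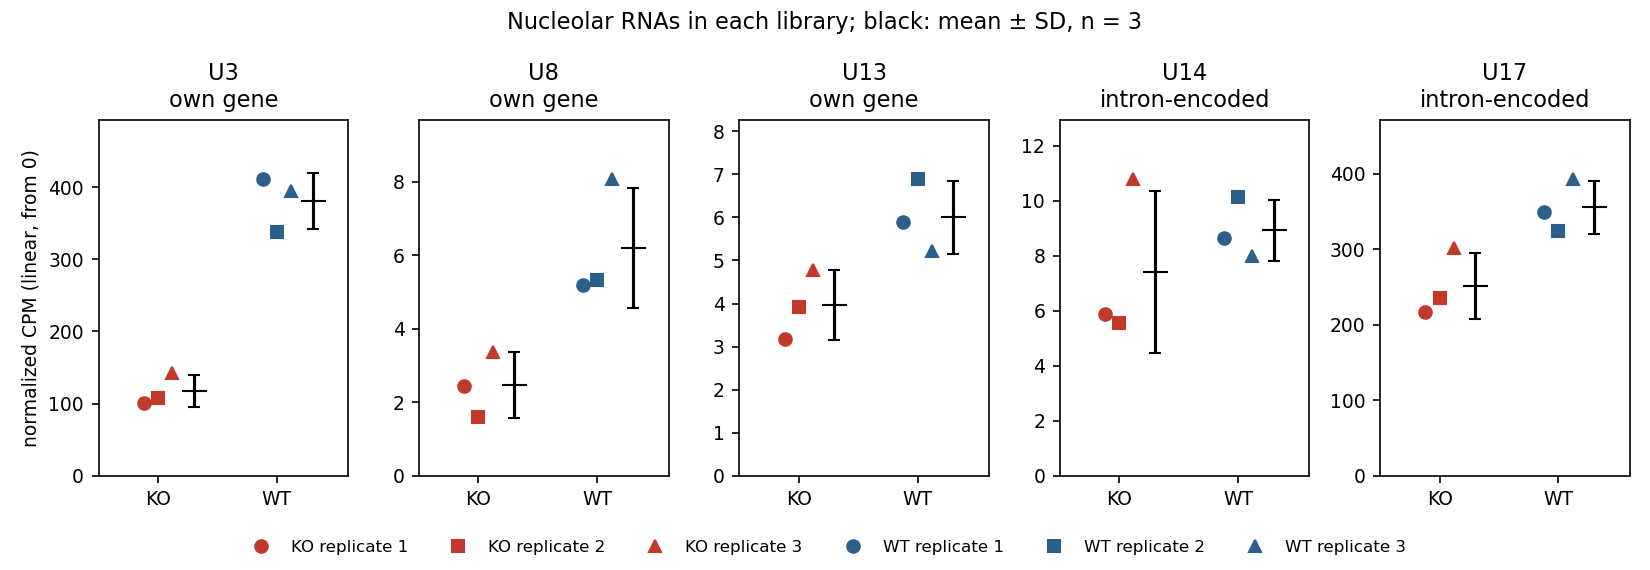
Normalized CPM (vertical axes, linear, starting at 0, each panel with its own scale) of the 5 nucleolar RNAs in the KO and WT libraries, with a symbol for each replicate number and the mean ± SD of 3 libraries in black. KO and WT points are separate for U3, U8, U13 and U17 and overlap for U14, where KO replicate 3 is at 10.8.

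All 5 members had a log2 fold change below 0, and 2 of the 5 were called lower, both of them RNAs with their own promoter. Over all tested rows 3.6% were called lower and 2.18% higher, 5.78% in all. Below 0 were also 569 of all 1193 tested rows, with 5 of 5 spliceosomal rows, 5 of 5 rows of other polymerase III RNAs and 37 of 39 tRNA rows. The median log2 fold change of the 5 members was -0.54, beside 0.01 over all 1193 rows. In 4 of the 5, U14 being the exception, every KO library lay below every WT library, as it did in 13.4% of all tested rows. The same held in 3 of 5 tested spliceosomal rows, 3 of 5 tested rows of other polymerase III RNAs and 24 of 39 tested tRNA rows. It was thus not particular to the nucleolar RNAs. The median log2 fold change was -1.36 among the 3 RNAs with their own promoter and -0.37 among the 2 intron-encoded ones. The ranges of their estimates adjoin, though, because U13 at -0.54 was next to U17 at -0.50.

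Ratios of counts within a library do not depend on how libraries are scaled. They separated U3 and U8 from the intron-encoded RNAs, whereas U13 was not separated. For the ratios here and below, the share of all tested rows that part in the same way was not counted. The counts of U3, U8 and U13 together were 0.476, 0.469 and 0.482 times those of U14 and U17 together in KO replicates 1, 2 and 3, against 1.18, 1.05 and 1.02 in WT replicates 1, 2 and 3. The KO libraries were thus close to each other and all below the WT libraries. The mean ratio was 0.476 ± 0.00643 in KO and 1.08 ± 0.0878 in WT (SD, n = 3 each), a difference of -1.18 in mean log2 ratio. This sum is mostly U3 over U17, which hold 44.4% and 52.6% of all member counts. Without U3 the ratio was 0.0247 ± 0.00170 in KO and 0.0335 ± 0.00279 in WT, a difference of -0.44 in mean log2 ratio, again without overlap. This remainder joins U8, which was separated from the intron-encoded RNAs, and U13, which was not. No p is given for these ratios, since the members were chosen with results known, and an exact permutation test of 3 against 3 libraries cannot give a two-sided p below 0.1.

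Taken pair by pair, U3 had 0.463, 0.457 and 0.472 counts for each U17 count in KO replicates 1, 2 and 3, against 1.18, 1.04 and 1.004 in WT replicates 1, 2 and 3. The KO ratio varied by little, although U3 and U17 each varied more between the same libraries, with coefficients of variation of 19.0% and 17.5% in normalized CPM. U8 had 1.13, 0.674 and 1.12 counts per 100 U17 counts in KO replicates 1, 2 and 3, against 1.49, 1.64 and 2.05 in WT replicates 1, 2 and 3. These groups did not overlap either. U13 had 1.46, 1.66 and 1.59 counts per 100 U17 counts in KO replicates 1, 2 and 3, against 1.69, 2.12 and 1.33 in WT replicates 1, 2 and 3. Here the groups overlapped, and the mean KO ratio was 0.918 of the mean WT ratio.

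Against U14, U3 stood at 17.1, 19.4 and 13.2 counts for each U14 count in KO replicates 1, 2 and 3, against 47.7, 33.3 and 49.3 in WT replicates 1, 2 and 3. The U8 to U14 ratio averaged 0.338 ± 0.0692 in KO and 0.712 ± 0.260 in WT, without overlap. The U13 to U14 ratio averaged 0.564 ± 0.132 in KO and 0.671 ± 0.0168 in WT, and its groups overlapped. Among the RNAs with their own promoter, U3 was also lower relative to U13, at 29.6 ± 2.10 counts for each U13 count in KO and 64.8 ± 14.01 in WT (SD, n = 3 each), whereas the U3 to U8 ratio overlapped between the groups, at 50.4 ± 15.1 in KO and 63.8 ± 15.2 in WT. The U8 to U13 ratio averaged 0.626 ± 0.194 in KO and 1.07 ± 0.419 in WT. Its groups were only just apart, with the highest KO value at 0.769 and the lowest WT value at 0.774. Between the intron-encoded RNAs, the U17 to U14 ratio overlapped too, at 35.8 ± 7.31 in KO and 40.5 ± 8.57 in WT.

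**Figure D2:**
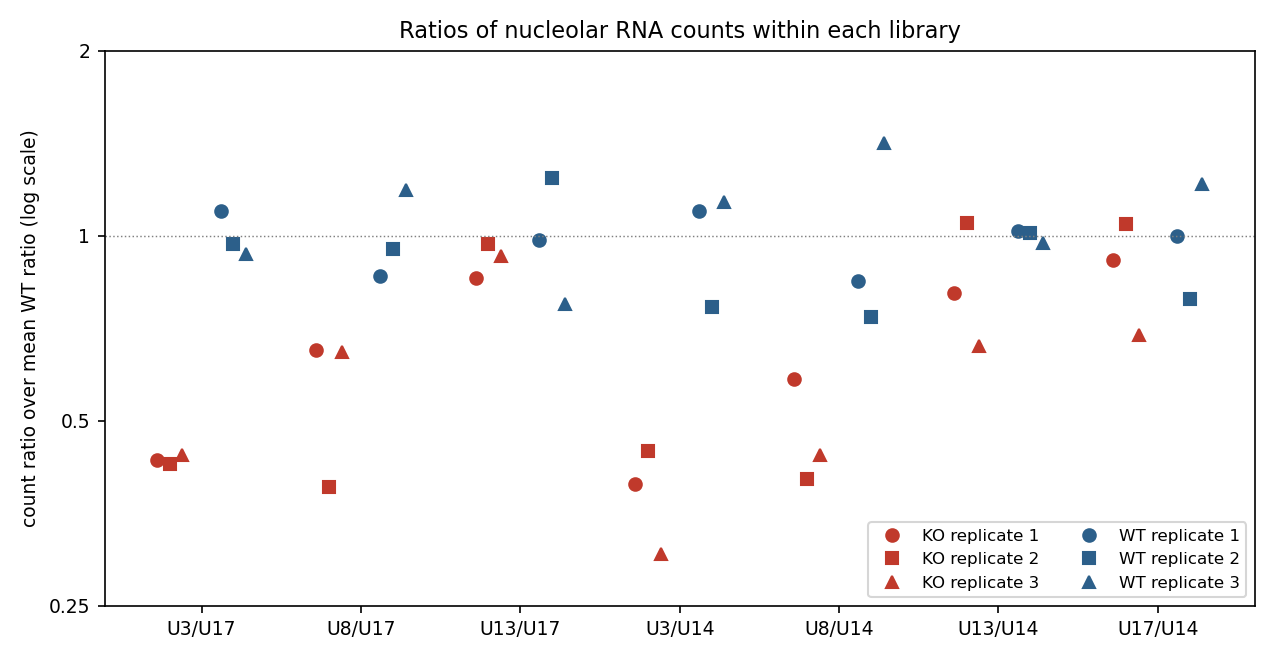
Ratios of nucleolar RNA counts within each library, divided by the mean WT ratio of the same pair (vertical axis, log scale), with a symbol for each library. KO and WT libraries are apart for the ratios of U3 and U8 to U17 or U14 and overlap for those of U13 to U17 or U14 and for U17/U14.

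The same contrast was drawn with the 7SK row, a polymerase III transcript whose own log2 fold change was -0.17 (adjusted p of 0.603 in edgeR), as the denominator. U3 had 4.43, 5.54 and 6.78 counts per 1000 counts of 7SK in KO replicates 1, 2 and 3, against 19.7, 13.3 and 15.9 in WT replicates 1, 2 and 3. U8 also stayed apart on this scale, with at most 0.161 in KO and at least 0.209 in WT. U13, U14 and U17 overlapped between the groups, and their mean KO values were 0.747, 0.933 and 0.796 of the mean WT values.

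The rows for the RNA that these members help to make did not pass. The small-subunit row SSU-rRNA_Hsa and the large-subunit row LSU-rRNA_Hsa had log2 fold changes of 0.18 and 0.08, with edgeR adjusted p of 0.943 and 0.975. The remaining rRNA row, 5S, which polymerase III makes apart from the long precursor, was at 0.44 (edgeR adjusted p = 0.601). The libraries were depleted of rRNA and the remaining share varied widely within each genotype, so these rows measure what depletion left as well as what the cells held, and the parts cannot be told apart. With the rRNA level of each library as a covariate, U3 and U8 stayed called, at -1.68 and -1.43.

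Most spliceosomal RNA genes share the promoter type of U3, U8 and U13, except that of U6, which polymerase III reads. Of 6 rows for spliceosomal RNAs and for U7, the RNA of histone mRNA processing, 5 were tested, and 1 fell and none rose. The row that fell was U2, which pairs with the branch site of introns, at 460 ± 89.0 normalized CPM in KO and 1015 ± 88.0 in WT (SD, n = 3 each; log2 fold change -1.14, edgeR adjusted p = 0.00429). U1, U4, U5 and U6 had log2 fold changes of -0.45, -0.39, -0.23 and -0.21 and did not pass. U7 had too few counts to be tested. U3 was lower even relative to U2, at 0.242, 0.269 and 0.253 U3 counts for each U2 count in KO replicates 1, 2 and 3, against 0.442, 0.335 and 0.357 in WT replicates 1, 2 and 3. The U17 to U2 ratio was higher in KO without overlap, at 0.549 ± 0.0345 in KO and 0.351 ± 0.0270 in WT. Of 7 rows for RNAs that polymerase III makes other than tRNA, 5S and U6, among them 7SK, 7SLRNA and the Y RNAs, 5 were tested and none passed, with log2 fold changes of -0.64 to -0.17. The tRNA rows, also transcripts of polymerase III and counted after their values were seen, included many falls: of 39 tested, 13 fell and none rose, beside 3.6% of all rows called lower, and their median log2 fold change was -0.78. The smallest p among them was that of tRNA-Gln-CAA, at 1.12 ± 0.153 normalized CPM in KO and 7.44 ± 0.201 in WT (SD, n = 3 each; log2 fold change -2.73, edgeR adjusted p = 0.000529).

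**Figure D3:**
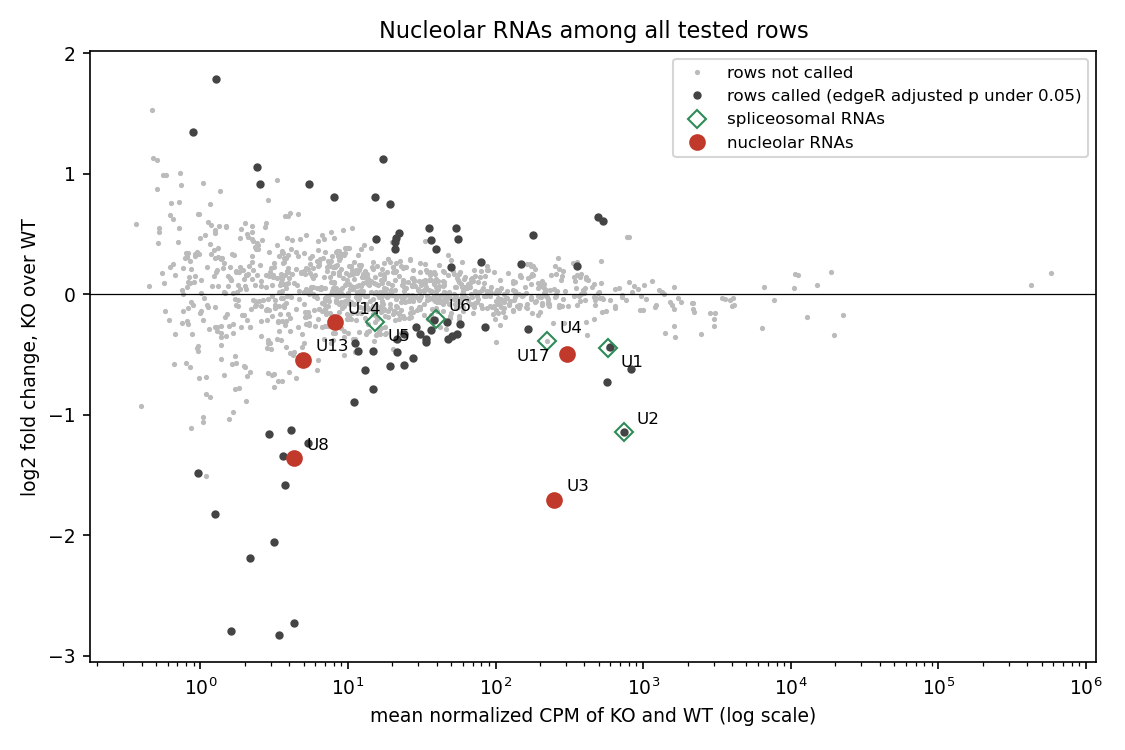
Log2 fold change, KO over WT, (vertical axis) against the mean normalized CPM of KO and WT (horizontal axis, log scale) for all 1193 tested rows, with called rows in dark grey, nucleolar RNAs in red and spliceosomal RNAs as open diamonds. U3 at -1.70 lies below the other rows of similar level, and U8 at -1.36 lies among other called rows of few counts.

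Per length, U17 and U3 had the highest levels in the libraries and the others had low ones. Divided by the mean length of the named loci, U17 had 1228 ± 215 and U3 543 ± 103 normalized CPM per kilobase in KO, and in WT they had 1735 ± 170 and 1768 ± 179 (SD, n = 3 each). The order in KO libraries was U17, U3, U14, U13 and U8 by mean level per kilobase, with 84.9 ± 33.6 for U14, 38.1 ± 7.72 for U13 and 18.3 ± 6.61 for U8, and no neighbours in this order overlapped. In WT libraries U3 and U17 did not differ beyond their spread, and below them came U14 at 102 ± 12.6, U13 at 57.7 ± 8.09 and U8 at 45.9 ± 12.05, with overlapping ranges of U13 and U8. U3 thus matched U17 per kilobase in WT libraries and was below it in all KO libraries, where U3 did not exceed 660 and U17 was at least 1061. These levels assume that reads come from the named loci along their whole length, which the tables cannot show. U3 and U17 also had the longest loci, with mean lengths of 215.6 and 205 bases, against 135 for U8 and 87.25 for U14. Whether length affects recovery in these libraries was not tested, so the order describes library levels and not levels in cells.

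Across the 6 libraries, the 5 rows most like U3 by Pearson correlation of log2 normalized CPM were MER91A (r = 0.99), U2 (0.98), RLTR1F_Mm (0.98), tRNA-Tyr-TAC (0.97) and RLTR18-int (0.97). The members themselves correlated with U3 at 0.92 for U8 and U17, 0.86 for U13 and 0.56 for U14. The rows most like U17 were MERVK26-int (0.997), 7SLRNA (0.99) and RLTR46 (0.97). The points are the same 6 libraries in 2 genotypes and share library depth and scaling, so the coefficients describe a pattern only.

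U3 kept its call in 17 of 18 alternative settings, and U8 in 9 of 18. U13 and U14 were not called in any of the 18, and U17 was called in 3. All 5 members kept a log2 fold change below 0 throughout. When libraries were scaled by all counts including rRNA, the median log2 fold change of the tested rows shifted by -0.37 and both calls ended, with U3 at -2.16 and U8 at -1.81. As CPM of the counts outside rRNA, U3 had 281, 501 and 533 in KO replicates 1, 2 and 3, against 1903, 908 and 1400 in WT replicates 1, 2 and 3, again without overlap. On this scale U8 stayed apart too, and U13 only just, with at most 18.2 in KO and at least 18.5 in WT. U14 and U17 overlapped, with U17 at 607 to 1129 in KO and 873 to 1614 in WT. This denominator still holds rows with many counts that varied widely within each genotype. An example is MMERVK9C_I-int, at 19868 ± 16745 normalized CPM in KO and 17457 ± 16804 in WT (SD, n = 3 each). How far such rows shift this scale was not tested.

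**Figure D4:**
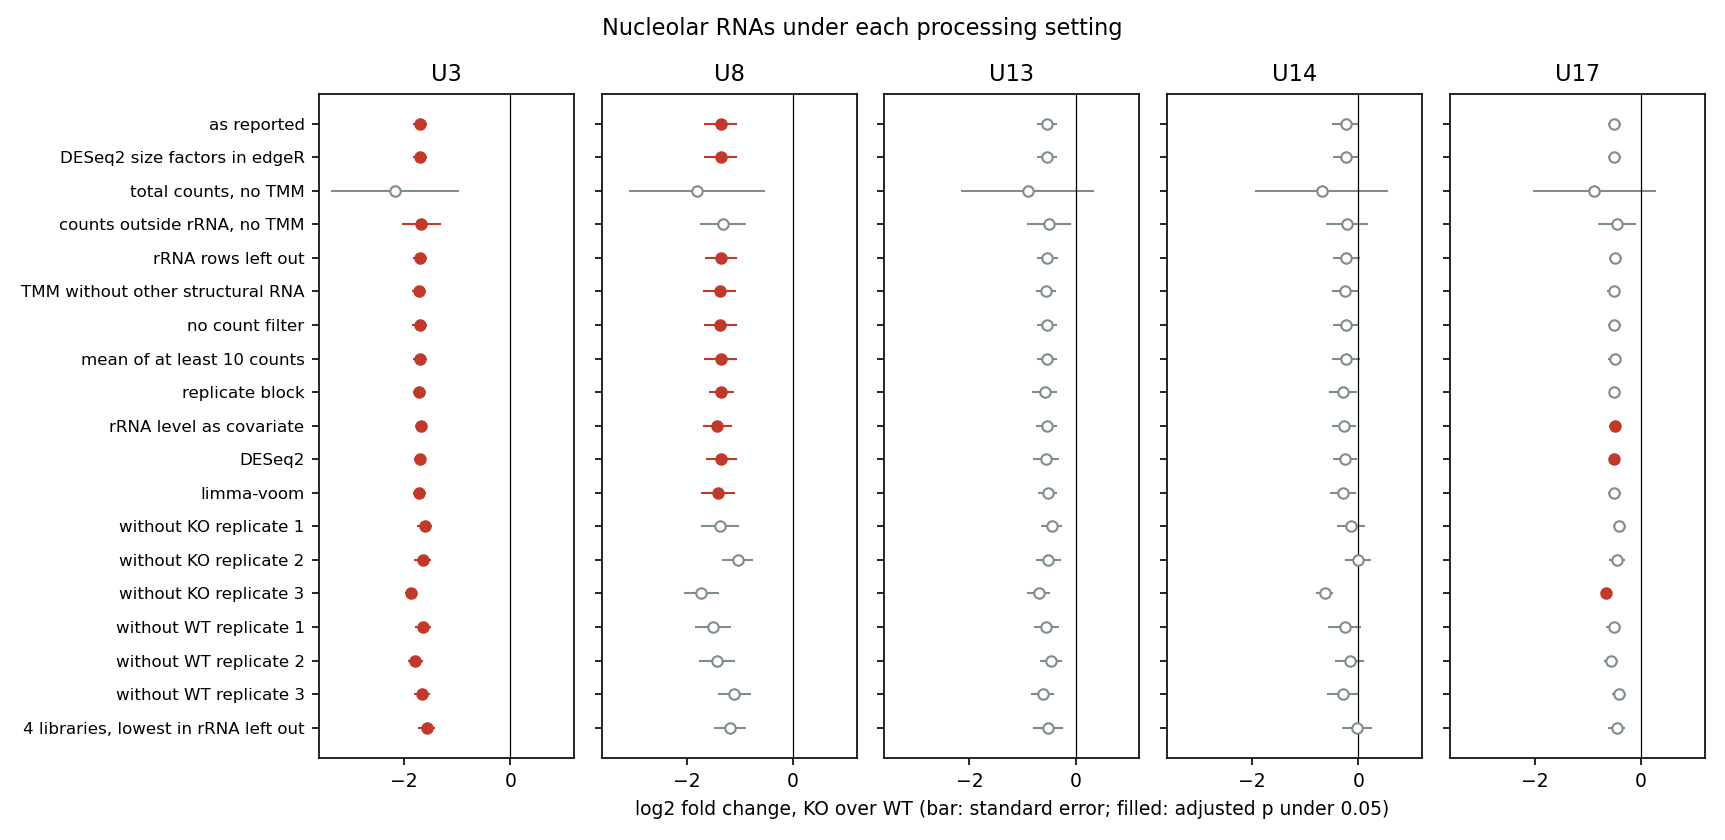
Log2 fold change, KO over WT, (horizontal axes) of each nucleolar RNA as reported and under 18 other settings (rows), with bars for 1 standard error and filled red points where the adjusted p was under 0.05. U3 is filled in every row except scaling by total counts, and U8 loses its call without any single library.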

How the data were processed

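RNA-seq libraries of 3 KO and 3 WT samples of mouse embryonic fibroblasts were prepared with a TruSeq Ribo-Zero kit, per the labels' protocols. FastQC 0.11.5, Trimmomatic and Bowtie2 and the builds mm10 and GRCm38 are named in the submitters' processing notes. The counting tool, the repeat annotation, the use of strand and how similar rows share reads are not stated in the sources used. What the authors deposited are estimated counts (called fraction counts in the file names) per repeat row, summed over all copies, unnormalized and already whole. Group and replicate number came from the sample titles.

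The counts were analysed on all rows with R 4.3.3 and edgeR 4.0.16, using filterByExpr (1193 rows kept, 143 removed), TMM and the quasi-likelihood test with genotype as the single term, with Benjamini-Hochberg adjustment over the kept rows at 0.05. The standard error is the log2 fold change divided by the root of the F statistic. TMM factors ran from 0.423 to 3.13. Alternatives used DESeq2 1.42.0, limma 3.58.1, other scalings, filters and covariates, and fewer libraries. The procedure was tested on simulated data. Members, lists and named rows (all members, rRNA, spliceosomal and polymerase III rows, tRNA rows added last, and the rows most correlated with U3 and U17) were chosen with earlier results of these data known. Libraries of 1 genotype differed by far more than sampling noise (a chi-square of at least 442 times its degrees of freedom in each pair). That chi-square used the counts of all rows, rRNA included, with expected values from total counts. It therefore does not measure the spread of the other rows after TMM. Loci and sequences were read from GENCODE M21, and the sequence and position of U13 are not reported here.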

Additional observations from a re-analysis of the deposited data

How the results depend on the processing

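All log2 fold changes of the 5 nucleolar RNAs stayed below 0 in the 18 settings. U3 lost its call when scaled by total counts (-2.16), where U8 (-1.81) did too and 0 of 5 members and 0 of all rows were called by edgeR. Of all rows 3 then had an unadjusted p under 0.05, compared with 249 in the reported fit. When scaled by counts outside rRNA, U8 was at -1.32 and not called, leaving 1 member and 6 rows called. Without the pair of libraries lowest in rRNA, WT replicate 1 and KO replicate 2, U8 was at -1.19 and not called, leaving 1 member and 9 rows. U17 became a call with the rRNA covariate (-0.49, with 109 rows called) and with DESeq2 (-0.50). Leaving out 1 library gave 1 to 2 members and 22 to 69 rows called, with U8 at -1.72 to -1.04 and never called, and U17 at -0.65 to -0.41, called only without KO replicate 3. Replicate numbers were not used to pair samples: deviations of same-numbered libraries correlated at -0.44, -0.39 and 0.02, and nothing in the labels ties a number to a batch or litter. With a replicate block 24 of all rows were called, against 69 as reported, and U3 (-1.71) and U8 (-1.35) were among them. The difference in mean log2 ratio of RNAs with their own promoter to intron-encoded ones, -1.18 as reported, was -1.22 to -1.12 without single libraries, -0.44 without U3 and -0.79 as a difference of mean log2 levels, by construction with equal weight for rare members. The cause of the lost or gained calls was not tested. Depth limits U8, U13 and U14, whose lowest counts were 20, 26 and 48.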
